A study of Mus musculus with 6 samples.

Results

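The genes of interferon signalling and the interferon response described here were 39 of the 39179 genes in the count table, taken by symbol from a list of 5 interferon receptor chains, 7 STAT and IRF transcription factors and 27 interferon-stimulated genes. The rule itself used no measured value. They were compared in 2 subsets of cortical thymic epithelial cells (cTEC), the stromal cells of the thymic cortex that support immature thymocytes. Both subsets were sorted as CD45-EpCAM1+UEA1-Ly51+ cells from untreated Cxcl12::DsRed mice on a C57BL/6 background at 10 weeks of age, in which a red fluorescent protein knocked into the locus of the chemokine gene Cxcl12 marks cells that use this locus. Cxcl12DsRed- cTEC lacked the red signal and Cxcl12DsRed+ cTEC, their reference, carried it, and each of experiments A, B and C gave 1 library of poly(A) RNA per subset, 6 in all. Every animal carried the reporter, so no library came from mice without it, and the sources do not say how many mice were pooled for a library.

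Interferons are secreted proteins that put cells into an antiviral state. Type I and type III interferons, through IFNAR1 with IFNAR2 and through IFNLR1 with a shared partner, activate a complex of STAT proteins with IRF9, which binds a DNA motif called the ISRE (interferon-stimulated response element). Type II interferon, through IFNGR1 and IFNGR2, acts mainly through STAT dimers that bind a motif called GAS (gamma-activated site). The induced genes include sensors of viral RNA, proteins that block viral replication, and GTPases that attack the vacuoles of intracellular microbes. The thymus is known for a steady interferon tone without infection, with medullary epithelial cells as a known source of interferons.

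The ISRE stands in the promoters of several members, and 6 stretches are shown because they place the motif in genes whose levels are compared afterwards: abundant genes of the type I response (Isg15, Ifit1, Ifit3, Bst2), a GTPase gene (Gbp7), and Rsad2, in which 1 library stood apart. Each line is RefSeq sequence of GRCm38.p6 on the coding strand, beginning 140 bases before the start of the gene for Ifit1 and 170 for the others and ending 21 bases before it, with every match to GAAANNGAAA, on either strand, in capitals.
Isg15, chr4:156200839-156200988, minus strand: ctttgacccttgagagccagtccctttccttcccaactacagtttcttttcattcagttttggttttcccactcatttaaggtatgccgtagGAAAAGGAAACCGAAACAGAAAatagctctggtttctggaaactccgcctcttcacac
Ifit1, chr19:34640749-34640868, plus strand: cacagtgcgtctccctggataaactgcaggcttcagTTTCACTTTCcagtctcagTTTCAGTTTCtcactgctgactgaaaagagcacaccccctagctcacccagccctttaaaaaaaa
Ifit3, chr19:34583359-34583508, plus strand: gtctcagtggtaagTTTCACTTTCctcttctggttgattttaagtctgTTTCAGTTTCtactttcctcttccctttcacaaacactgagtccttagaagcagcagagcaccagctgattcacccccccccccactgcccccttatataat
Bst2, chr8:71537493-71537642, minus strand: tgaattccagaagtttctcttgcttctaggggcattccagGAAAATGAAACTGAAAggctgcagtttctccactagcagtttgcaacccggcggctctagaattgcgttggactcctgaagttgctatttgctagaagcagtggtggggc
Gbp7, chr3:142530166-142530315, plus strand: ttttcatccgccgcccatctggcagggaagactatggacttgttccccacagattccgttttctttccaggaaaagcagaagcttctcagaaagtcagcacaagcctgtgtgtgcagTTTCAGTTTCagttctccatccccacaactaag
Rsad2, chr12:26456473-26456622, minus strand: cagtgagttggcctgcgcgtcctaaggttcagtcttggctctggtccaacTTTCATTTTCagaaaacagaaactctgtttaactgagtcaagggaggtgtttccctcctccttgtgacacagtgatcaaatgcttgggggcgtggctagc

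Of the 39 members, 32 had a promoter window in the RefSeq table, with 39 windows in all because several genes had more than 1 start. The members without a window were Dhx58, Usp18, Oas2, Mx1, Mx2, Rtp4 and Iigp1. In the 250 bases before the start, GAAANNGAAA was found on either strand in 12 of the 32 members (37.5%), against 3.46% of 27025 genes searched the same way. The motif TTCNNNGAA, the core of GAS, reads the same on both strands and was found in 9 of the 32 (28.1%), against 8.13% of all genes. The 12 members with the ISRE letters were Stat2, Isg15, Ifit1, Ifit3, Oas1a, Bst2, Rsad2, Gbp2, Gbp3, Gbp7, Igtp and Irgm1, and matches 6 bases apart overlapped one another in Isg15, Oas1a, Bst2, Gbp3 and Irgm1. A match is a description of the letters, and binding was not measured.

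**Figure D1:**
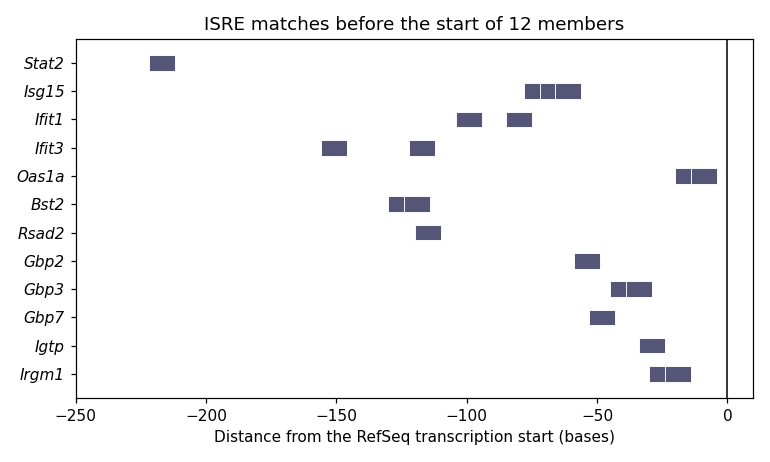
Position of each match to the ISRE letters GAAANNGAAA, on either strand, in bases before the RefSeq transcription start (vertical line at 0) for the 12 members that hold one. Each bar is 1 match of 10 bases. The match of Stat2 lies farthest from the start, at -222.

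Depth was 34574900 to 44969195 counts in genes in the Cxcl12DsRed- libraries and 38875590 to 51042679 in the Cxcl12DsRed+ libraries, and levels are given as CPM (counts scaled to a fixed library total) after TMM scaling, a correction for differences in library composition. The reporter transcript was at 17.6 to 27.8 CPM in Cxcl12DsRed- cTEC and 860 to 2059 CPM in Cxcl12DsRed+ cTEC, which follows the labels. The 10 cTEC markers were all detected in both subsets and summed to 2342 to 3056 CPM in Cxcl12DsRed- cTEC and 10116 to 18433 CPM in Cxcl12DsRed+ cTEC. Transcripts of other cells differed too. The 8 markers of tuft cells, chemosensory epithelial cells, summed to 403 to 2171 CPM in Cxcl12DsRed- cTEC and 31.6 to 34.3 CPM in Cxcl12DsRed+ cTEC, and the 8 markers of myeloid and dendritic cells to 149 to 846 CPM in Cxcl12DsRed- cTEC and 31.9 to 88.1 CPM in Cxcl12DsRed+ cTEC. The 8 endothelial markers summed to 43.7 to 99.5 CPM in Cxcl12DsRed- cTEC and to 617, 594 and 4269 CPM in Cxcl12DsRed+ cTEC of experiments A, B and C, so the Cxcl12DsRed+ library of experiment C stood apart. The 5 fibroblast markers summed to 3404 to 3782.5 CPM in Cxcl12DsRed- cTEC and 844 to 1747 CPM in Cxcl12DsRed+ cTEC. All 5 were higher in Cxcl12DsRed- cTEC in each experiment. In these sorted pools, fewer cells of a type and less RNA per cell cannot be told apart, and the part of other cells in the results was not tested.

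All 39 members were expressed well enough to be tested. None of them passed an adjusted p of 0.05 in the quasi-likelihood test of edgeR after adjustment by Benjamini-Hochberg, while 0.449% of the 15576 genes tested were called higher and 0.173% lower in Cxcl12DsRed- cTEC. With edgeR's likelihood ratio test, which called 3.53% of all genes higher and 2.12% lower, 1 member passed, Oasl1. DESeq2, which called 1081 of the 15576 genes in either direction, called the same member alone. At an unadjusted p under 0.05 in the quasi-likelihood test, 4 members were higher in Cxcl12DsRed- cTEC (Irf7, Ifih1, Ifit1 and Oasl1), or 10.3% of the members against 7.02% of all genes, and 1 was lower (Ifngr1), or 2.56% against 4.8%. When the fit held the experiment as a block (a paired design), 7 were higher at that level, the same 4 with Usp18, Ifit3 and Mx1, and 0 were lower, while 6.57% of all genes were higher and 4.87% lower in that fit.

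The members lay mostly on the side of Cxcl12DsRed- cTEC, by small amounts. The log2 difference, Cxcl12DsRed- over Cxcl12DsRed+, was positive for 27 members and negative for 12. Over all genes tested, it was positive for 7989 and negative for 7587. The median was 0.14 for the members, against 0.02 over all genes tested. The members ran from -0.94 for Ifit2 to 1.75 for Mx1. Every Cxcl12DsRed- library was above every Cxcl12DsRed+ library in 6 members (15.4%), against 9.73% of all genes, and below in 1 (2.56%), against 9.32%. Within experiments, 14 members were higher in Cxcl12DsRed- cTEC in A, B and C alike (35.9%, against 17.5% of all genes) and 3, Ifngr1, Ifngr2 and Ifi35, were lower in all of them (7.69%, against 17.5%). The members' median ratio within experiments was 0.19 in A, 0.32 in B and 0.07 in C on the log2 scale, with 0.5 CPM added, and the medians over all genes were 0.00, -0.03 and 0.02. These counts describe the list, and no test of the list as a whole was made. The spread limited what could be seen. The 95% interval of the difference lay within 1 log2 unit on either side of 0 for 17 of the 39 members. It reached beyond that for the other members. Over all genes it lay within for 3124 of 15576 (20.1%), a smaller share.

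The pattern moved with the Cxcl12DsRed- library of experiment A, which was the highest of the 6 libraries in 20 of the 39 members and in 17 of the 27 stimulated genes, and the lowest in 4 members. How often this library was the highest over all genes was not counted. Without it, the median log2 difference was 0.01, against -0.03 over all genes, with 20 members positive and 19 negative. At an unadjusted p under 0.05 in the quasi-likelihood test, 1 member was then higher, where 5.28% of all genes were. Without both libraries of experiment A, the median was 0.15, against -0.02 over all genes, with 26 members positive and 13 negative. Experiment A was often the highest in both subsets. Within Cxcl12DsRed- cTEC its library was the highest in 23 of the 39 members and in 20 of the 27 stimulated genes. Within Cxcl12DsRed+ cTEC its library was the highest in 19 of the 39 members and in 14 of the 27 stimulated genes. The Cxcl12DsRed+ library of experiment C was the lowest in 13 members and that of experiment B in 10, yet the Cxcl12DsRed+ library of experiment C was also the highest in 6. The Cxcl12DsRed- library of experiment A had the largest tuft cell sum, 2171 CPM, against 645 and 403 CPM in the Cxcl12DsRed- libraries of B and C, and the part of tuft cells in the pattern was not tested. All 8 tuft cell markers were above in every Cxcl12DsRed- library, and Il25 had 0 counts in all Cxcl12DsRed+ libraries.

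**Figure D2:**
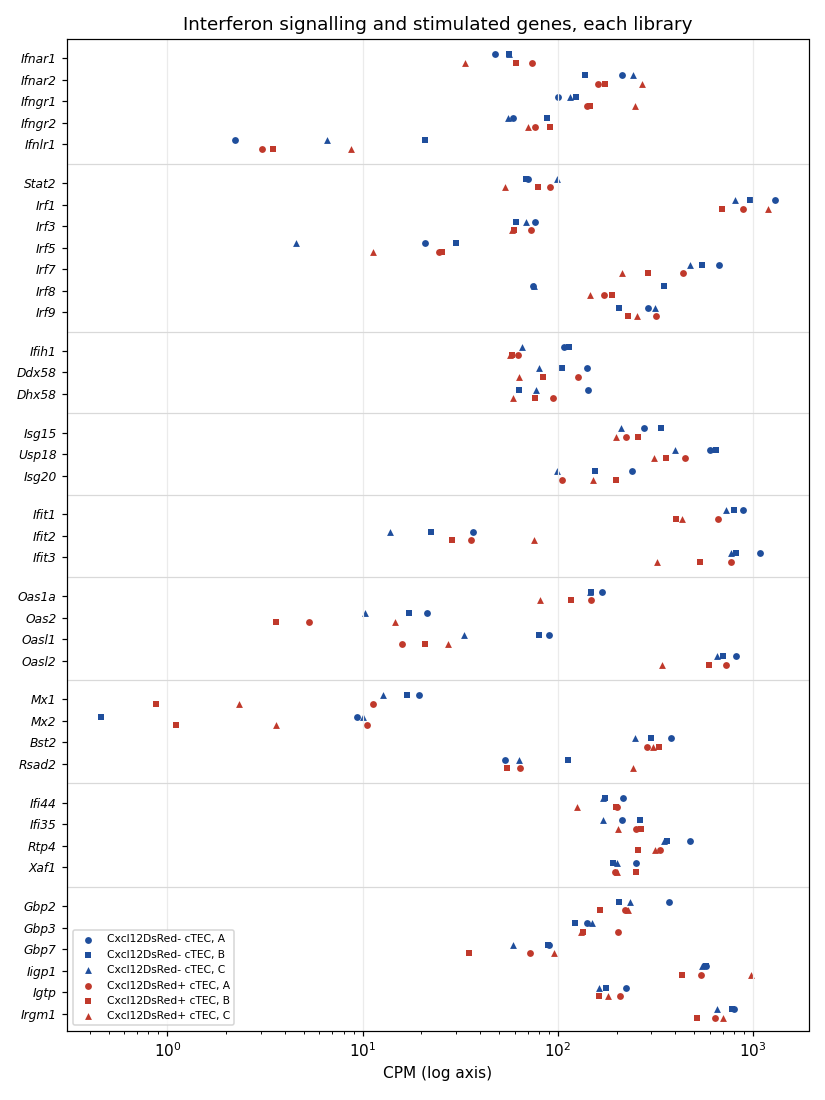
CPM on a log axis of the 39 members in each library, in rows by gene and grouped by role, with the 3 Cxcl12DsRed- libraries (blue) above the 3 Cxcl12DsRed+ libraries (red) and the experiment given by the marker shape. The groups overlap in 32 members, while over all genes 9.73% were above and 9.32% below without overlap. The blue circles of experiment A are the rightmost points in 20 rows.

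Abundance differed far more between members than between the subsets. Per kilobase of annotated exon, Ifit3 was the most abundant in Cxcl12DsRed- cTEC, at a mean of 509 CPM per kb there and 310 CPM per kb in Cxcl12DsRed+ cTEC. Isg15 was at 364 CPM per kb in Cxcl12DsRed- cTEC and 300 CPM per kb in Cxcl12DsRed+ cTEC. Bst2 was at 343 CPM per kb in Cxcl12DsRed- cTEC and 340 CPM per kb in Cxcl12DsRed+ cTEC, where it was the most abundant member. Among the least abundant on this scale were Mx2, at 1.8 CPM per kb in Cxcl12DsRed- cTEC and 1.4 CPM per kb in Cxcl12DsRed+ cTEC, and Ifnlr1, at 2.4 CPM per kb in Cxcl12DsRed- cTEC and 1.2 CPM per kb in Cxcl12DsRed+ cTEC. Several members lie in clusters in the genome (GRCm38), with other genes between some of them. Ifnar2, Ifnar1 and Ifngr2 lie on chromosome 16 between 91372783 and 91565623, and the IFIT genes on chromosome 19 between 34550694 and 34650009. Gbp7, Gbp3 and Gbp2 lie on chromosome 3 between 142530342 and 142638008. Some members also share sequence with neighbours or copies. Of their 50-base stretches, Igtp shares 11.8% with Irgm2, Gbp7 10.5% with Gm43802 and Ifnar2 7.89% with Gm21970. For Ifi35, 16.8% of the exons overlap an antisense transcript whose reads cannot be told apart without strand. HTSeq listed reads without a unique alignment apart, at 5.61% to 9.07% of the counts in genes. The ratio of the highest to the lowest library within a subset had a median over the members of 1.53 in Cxcl12DsRed- cTEC and 1.69 in Cxcl12DsRed+ cTEC, while over all genes it was 2.11 in Cxcl12DsRed- cTEC and 1.73 in Cxcl12DsRed+ cTEC. The ratio was larger in Cxcl12DsRed- cTEC for 20 of the 39 members and for 63.1% of all genes.

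Among the receptors, the type II chain Ifngr1 was the one whose subsets did not overlap. Ifngr1, which binds interferon gamma, had 101, 124 and 115 CPM in Cxcl12DsRed- cTEC of experiments A, B and C, against 141, 146 and 249 CPM in Cxcl12DsRed+ cTEC. Every Cxcl12DsRed- library was thus below every Cxcl12DsRed+ library, and the Cxcl12DsRed+ library of experiment C was far above the other 5. The log2 difference was -0.66 ± 0.27 (SE, n = 3 per subset; adjusted p = 0.399 in edgeR's quasi-likelihood test), and -0.38 ± 0.20 without that library. Ifngr2, the second chain of this receptor, had 58.9, 87.6 and 55.6 CPM in Cxcl12DsRed- cTEC, against 76.0, 91.0 and 70.2 CPM in Cxcl12DsRed+ cTEC. The order within each experiment was as for Ifngr1, but the libraries overlapped (log2 difference -0.23 ± 0.25, adjusted p = 0.840 in the same edgeR test).

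The chains of the type I receptor overlapped between the subsets. Ifnar1 had 47.6, 56.5 and 56.3 CPM in Cxcl12DsRed- cTEC, against 73.4, 60.9 and 33.5 CPM in Cxcl12DsRed+ cTEC, so the Cxcl12DsRed+ libraries held both the highest and the lowest value. Its log2 difference was -0.07, with a 95% interval of -0.83 to 0.69 (adjusted p = 0.974, edgeR quasi-likelihood test). Ifnar2, which also binds USP18, had 214, 138 and 242 CPM in Cxcl12DsRed- cTEC, against 161, 175 and 271 CPM in Cxcl12DsRed+ cTEC. The subsets overlapped throughout, with a log2 difference of -0.03 and an interval of -0.74 to 0.67 (adjusted p = 0.986, edgeR quasi-likelihood test). The direction of Ifnar1 turned with the block and with a library or experiment left out. That of Ifnar2 turned only with a library or experiment left out.

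Ifnlr1, the chain particular to type III interferon, was low and uneven. It had 2.22, 20.8 and 6.59 CPM in Cxcl12DsRed- cTEC, against 3.06, 3.48 and 8.71 CPM in Cxcl12DsRed+ cTEC. The single high value was that of the Cxcl12DsRed- library of experiment B, and in experiments A and C the Cxcl12DsRed- library was the lower one. The log2 difference of 0.96 ± 0.94 (adjusted p = 0.819 in edgeR's quasi-likelihood test) became -0.21 without that library.

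Of the 7 factors, Irf7 separated the subsets. Irf7, which drives the type I interferon genes and is itself interferon-stimulated, had 670, 549 and 474 CPM in Cxcl12DsRed- cTEC, against 438, 289 and 214 CPM in Cxcl12DsRed+ cTEC. The lowest Cxcl12DsRed- library was above the highest Cxcl12DsRed+ library, and experiment A was the highest and C the lowest in both subsets. The log2 difference was 0.85 ± 0.30 (SE, n = 3 per subset; unadjusted p = 0.024, adjusted p = 0.308 in edgeR's quasi-likelihood test). With the block it was 0.90 ± 0.19 (adjusted p = 0.179 by edgeR's quasi-likelihood test and 0.046 by its likelihood ratio test), so the call depended on the test.

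The other 6 factors overlapped between the subsets. Irf1, which mediates much of the response to interferon gamma, was the most abundant factor, with 1293, 966 and 808 CPM in Cxcl12DsRed- cTEC, against 885, 696 and 1194 CPM in Cxcl12DsRed+ cTEC. Stat2 and Irf9 encode partners in the complex that binds the ISRE. Stat2 had 68.7 to 98.6 CPM in Cxcl12DsRed- cTEC and 53.7 to 90.8 CPM in Cxcl12DsRed+ cTEC. Irf9 had 207 to 314 CPM in Cxcl12DsRed- cTEC and 228 to 317 CPM in Cxcl12DsRed+ cTEC. Irf3, which RNA sensing activates without new synthesis, had 61.1 to 76.3 CPM in Cxcl12DsRed- cTEC and 58.0 to 73.2 CPM in Cxcl12DsRed+ cTEC. Irf5, known from signalling in myeloid cells, had 4.55 to 30.2 CPM in Cxcl12DsRed- cTEC and 11.3 to 25.6 CPM in Cxcl12DsRed+ cTEC. Irf8, a factor of myeloid and dendritic cells, had 74.6, 349 and 75.7 CPM in Cxcl12DsRed- cTEC, against 173, 190 and 147 CPM in Cxcl12DsRed+ cTEC. The Cxcl12DsRed- libraries of A and C were thus below all Cxcl12DsRed+ libraries and that of B above them all.

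Of the 3 genes of the cytoplasmic RNA sensors, Ifih1 separated the subsets. Ifih1, which encodes the sensor MDA5, had 107, 113 and 65.4 CPM in Cxcl12DsRed- cTEC, against 62.3, 58.2 and 57.0 CPM in Cxcl12DsRed+ cTEC. The Cxcl12DsRed+ libraries were close together, and the Cxcl12DsRed- library of experiment C was just above them. The log2 difference was 0.69 ± 0.26 (SE, n = 3 per subset; unadjusted p = 0.032, adjusted p = 0.353 in edgeR's quasi-likelihood test). Ddx58, which encodes RIG-I, had 80.0 to 141 CPM in Cxcl12DsRed- cTEC and 63.3 to 127 CPM in Cxcl12DsRed+ cTEC. Dhx58, which encodes their regulator LGP2, had 62.9 to 142 CPM in Cxcl12DsRed- cTEC and 58.9 to 94.3 CPM in Cxcl12DsRed+ cTEC. Both overlapped, and neither kept its direction without the Cxcl12DsRed- library of experiment A.

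Isg15 encodes a ubiquitin-like modifier, Usp18 the protease that removes it and restrains type I signalling, and Isg20 an exonuclease. Isg15, whose promoter holds the run of 3 overlapping ISRE matches shown above, had 276, 340 and 210 CPM in Cxcl12DsRed- cTEC, against 224, 257 and 200 CPM in Cxcl12DsRed+ cTEC. It was higher in Cxcl12DsRed- cTEC within each experiment but overlapped across them. Usp18 had 603, 644 and 398 CPM in Cxcl12DsRed- cTEC, against 446, 356 and 313 CPM in Cxcl12DsRed+ cTEC, where the Cxcl12DsRed- library of experiment C was below the Cxcl12DsRed+ library of A and the others were above all 3. Isg20 had 98.8 to 240 CPM in Cxcl12DsRed- cTEC and 105 to 198 CPM in Cxcl12DsRed+ cTEC, with the higher subset differing between experiments.

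The IFIT genes, whose proteins bind foreign RNA and block its translation, went different ways. Ifit1 had 887, 802 and 723 CPM in Cxcl12DsRed- cTEC, against 663, 405 and 432 CPM in Cxcl12DsRed+ cTEC, without overlap. Its log2 difference was 0.68 ± 0.24 (SE, n = 3 per subset; unadjusted p = 0.023, adjusted p = 0.302 in edgeR's quasi-likelihood test). Ifit3 had 1084, 816 and 767 CPM in Cxcl12DsRed- cTEC, against 768, 533 and 323 CPM in Cxcl12DsRed+ cTEC, with the lowest Cxcl12DsRed- library level with the highest Cxcl12DsRed+ library. Ifit2 was low in both and highest in the Cxcl12DsRed+ library of experiment C, with 37.0, 22.3 and 13.9 CPM in Cxcl12DsRed- cTEC, against 36.0, 28.8 and 75.9 CPM in Cxcl12DsRed+ cTEC. Ifit3 shares 51.2% of its 50-base stretches with its copy Ifit3b, so its count depends on how reads that match both were treated, and for Ifit1 the share with Ifit1bl2 was 7.06%.

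The OAS genes encode synthetases of the signal that activates RNase L, and relatives of them. Oasl1, a relative known in the mouse for restraining the translation of Irf7 mRNA, had 90.3, 80.5 and 32.9 CPM in Cxcl12DsRed- cTEC, against 15.9, 20.98 and 27.5 CPM in Cxcl12DsRed+ cTEC. In experiments A and B the Cxcl12DsRed- library was several times the Cxcl12DsRed+ one, and in C the values were close. Oasl1 had the smallest p of the members, with a log2 difference of 1.66 ± 0.43 (SE, n = 3 per subset; unadjusted p = 0.007, adjusted p = 0.156 in edgeR's quasi-likelihood test, 0.018 in its likelihood ratio test and 0.010 in DESeq2). Over all 18 alternatives its log2 difference was 1.18 to 2.18, with an adjusted p of 0.010 to 0.678 from edgeR, limma or DESeq2.

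The other OAS members overlapped. Oas2 had 21.5, 17.3 and 10.2 CPM in Cxcl12DsRed- cTEC, against 5.29, 3.61 and 14.6 CPM in Cxcl12DsRed+ cTEC, so experiment C ran against A and B. Oas1a had 169, 147 and 146 CPM in Cxcl12DsRed- cTEC, against 148, 117 and 80.8 CPM in Cxcl12DsRed+ cTEC, and shares 57.6% of its 50-base stretches with Oas1g. Oasl2 had 651 to 815 CPM in Cxcl12DsRed- cTEC and 340 to 725 CPM in Cxcl12DsRed+ cTEC. Oas1a and Oasl2 were higher in Cxcl12DsRed- cTEC in each experiment.

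Mx1, a dynamin-like antiviral GTPase gene that is known to be defective in most inbred mouse strains, C57BL/6 among them, had 19.4, 16.8 and 12.7 CPM in Cxcl12DsRed- cTEC, against 11.3, 0.876 and 2.32 CPM in Cxcl12DsRed+ cTEC. The subsets did not overlap, but the 3 Cxcl12DsRed+ values lay far apart. The log2 difference was 1.75 ± 0.95 (SE, n = 3 per subset; adjusted p = 0.569 in edgeR's quasi-likelihood test), the largest of the list with one of the largest errors, and it was 3.31 without the Cxcl12DsRed+ library of experiment A and 1.23 without that of B. Mx2, its cytoplasmic relative, was low and uneven, with 9.40, 0.456 and 10.01 CPM in Cxcl12DsRed- cTEC, against 10.6, 1.11 and 3.61 CPM in Cxcl12DsRed+ cTEC. It was low in both libraries of experiment B.

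Bst2, which encodes tetherin, a membrane protein that holds budding virus at the cell, had 381, 300 and 249 CPM in Cxcl12DsRed- cTEC, against 285, 330 and 306 CPM in Cxcl12DsRed+ cTEC. Rsad2, which encodes viperin, had 53.6, 112 and 63.2 CPM in Cxcl12DsRed- cTEC, against 64.2, 55.2 and 244 CPM in Cxcl12DsRed+ cTEC. The Cxcl12DsRed+ library of experiment C was far above the other 5 for Rsad2, while Bst2 overlapped without any library apart.

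Rtp4, which encodes a chaperone of cell surface receptors that interferon induces, had 474, 363 and 350 CPM in Cxcl12DsRed- cTEC, against 335, 257 and 313 CPM in Cxcl12DsRed+ cTEC. The subsets were close but did not overlap (log2 difference 0.39 ± 0.20, SE, n = 3 per subset; adjusted p = 0.541 in edgeR's quasi-likelihood test). Rtp4 shares 11.6% of its 50-base stretches with the transcript Gm45338, which overlaps its exons. The remaining 3 overlapped. Ifi44 had 171 to 215 CPM in Cxcl12DsRed- cTEC and 126 to 202 CPM in Cxcl12DsRed+ cTEC. Ifi35 had 171 to 264 CPM in Cxcl12DsRed- cTEC and 202 to 265 CPM in Cxcl12DsRed+ cTEC. Xaf1, a gene linked to cell death, had 193 to 253 CPM in Cxcl12DsRed- cTEC and 197 to 251 CPM in Cxcl12DsRed+ cTEC.

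**Figure D3:**
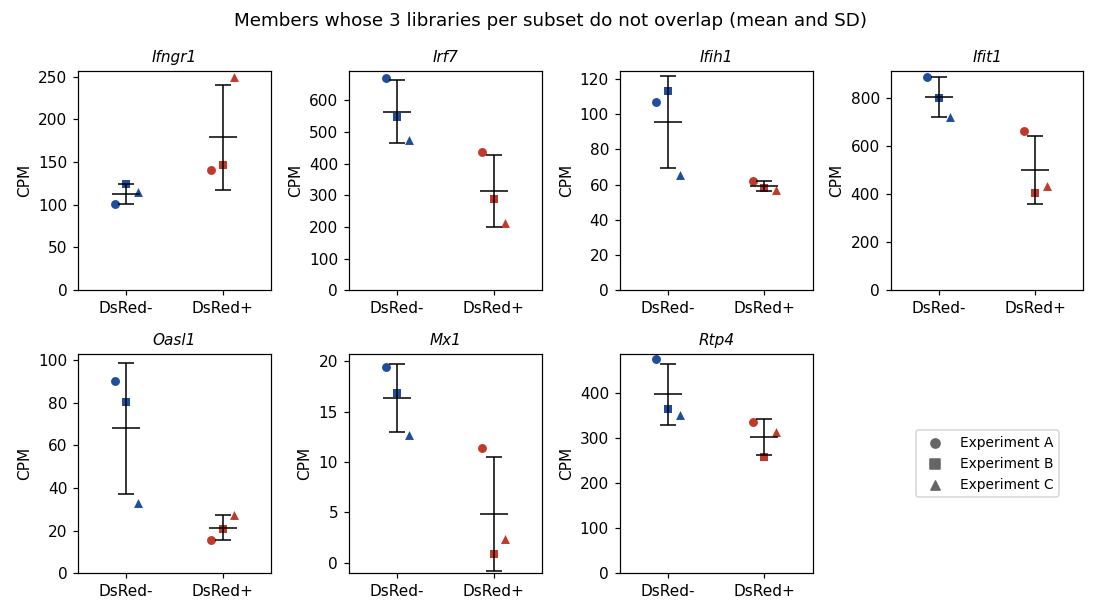
CPM of the 7 members whose libraries do not overlap between the subsets, Cxcl12DsRed- at the left and Cxcl12DsRed+ at the right of each panel. Points are libraries, with the experiment given by the marker shape, and bars are the mean and SD of 3 libraries. Ifngr1 is below in Cxcl12DsRed- cTEC and the other 6 are above, with the nearest libraries of Ifih1 at 65.4 and 62.3 CPM.

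The GTPase genes, a part of the response that interferon gamma drives strongly, overlapped between the subsets in 6 of 6 cases. Most genes overlapped, as 9.73% of all genes were above and 9.32% below. The guanylate-binding genes encode proteins that coat and open microbial vacuoles. Gbp2 had 205 to 369 CPM in Cxcl12DsRed- cTEC and 164 to 229 CPM in Cxcl12DsRed+ cTEC, and was higher in Cxcl12DsRed- cTEC within each experiment. Gbp3 had 123 to 150 CPM in Cxcl12DsRed- cTEC and 131 to 202 CPM in Cxcl12DsRed+ cTEC. Gbp7 had 59.1 to 89.7 CPM in Cxcl12DsRed- cTEC and 35.1 to 95.04 CPM in Cxcl12DsRed+ cTEC. Of the immunity-related GTPase genes, Igtp, an effector at vacuoles, had 163 to 223 CPM in Cxcl12DsRed- cTEC and 163 to 208 CPM in Cxcl12DsRed+ cTEC. Irgm1, a regulator of the effectors, had 652 to 795 CPM in Cxcl12DsRed- cTEC and 518 to 703 CPM in Cxcl12DsRed+ cTEC. Iigp1, an effector of the same family, had 574, 573 and 548 CPM in Cxcl12DsRed- cTEC, against 541, 433 and 975 CPM in Cxcl12DsRed+ cTEC. Its Cxcl12DsRed- libraries were within a narrow range and the spread lay in Cxcl12DsRed+ cTEC.

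**Figure D4:**
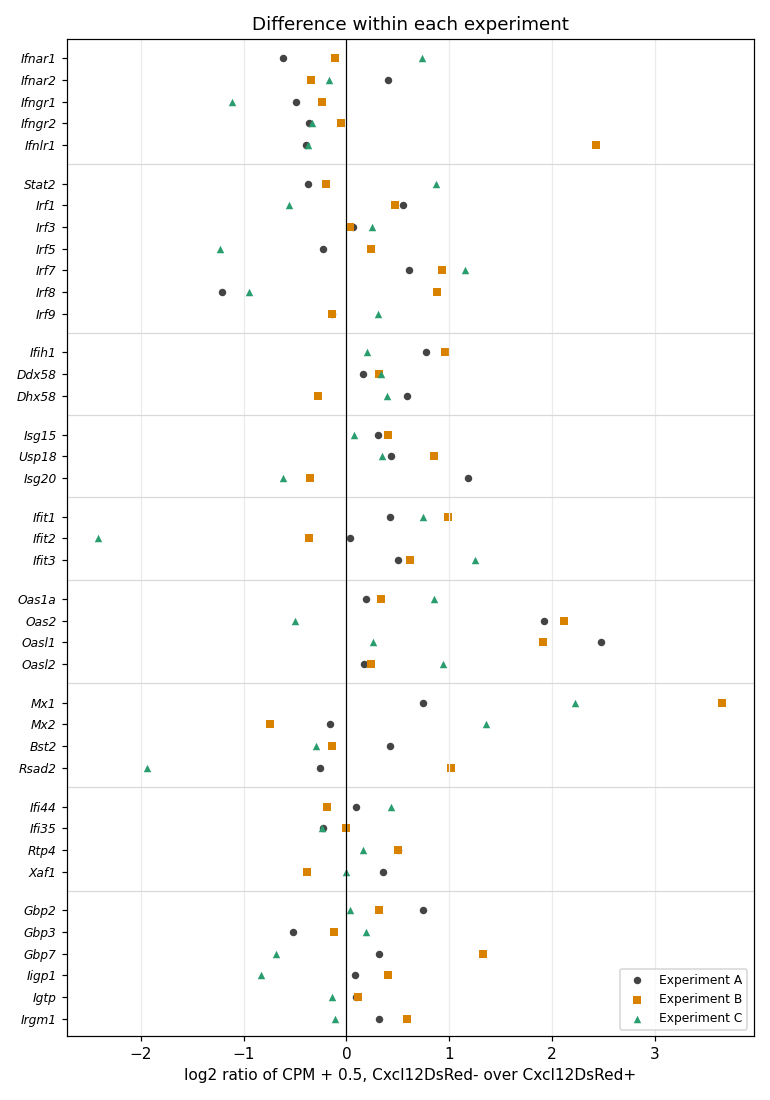
Log2 ratio of CPM (0.5 added), Cxcl12DsRed- over Cxcl12DsRed+, within experiments A, B and C for the 39 members, in the same order and groups as the plot of levels. The 3 points lie right of 0 for 14 members, left of 0 for 3 and on both sides for 22, and the widest spreads are those of Rsad2, Mx1, Ifnlr1 and Oas2.

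Members with the ISRE letters in their promoter window were compared with those without. The log2 difference was positive in 10 of the 12 with a match, with a median of 0.25, and in 11 of the 20 without, with a median of 0.05. The subsets did not overlap in 1 of the 12, Ifit1, and in 4 of the 20, 3 above and 1 below, where 9.73% of all genes were above and 9.32% below. All of the 12 but Stat2 were stimulated genes, while the receptors and IRF factors all fell among the 20. The split thus partly followed gene class. Differences were positive for 21 of the 27 stimulated genes, 5 of the 7 factors and 1 of the 5 receptors. Over all genes tested, 7989 of 15576 were positive. No test of members with a match against those without was made.

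A pair of libraries stood apart in several members. The Cxcl12DsRed+ library of experiment C was the highest of the 6 for Ifnar2, Ifngr1, Ifit2, Rsad2, Gbp7 and Iigp1, and had the endothelial sum of 4269 CPM, against 43.7 to 617 CPM in the other 5. The endothelial junction gene Pecam1 was at 13.1, 1.67 and 3.37 CPM in Cxcl12DsRed- cTEC, against 135, 124 and 927 CPM in Cxcl12DsRed+ cTEC. Cdh5, another, was at 1.11, 0.365 and 0.271 CPM in Cxcl12DsRed- cTEC, against 13.8, 25.8 and 171 CPM in Cxcl12DsRed+ cTEC. Of the 8 endothelial markers, 7 were lower in every Cxcl12DsRed- library and none was at 0 throughout a subset. The same library also had the highest sum of the 4 pericyte markers, 862 CPM against 66.3 to 176 CPM in the other 5. Its sum of the 5 fibroblast markers was the lowest, 844 CPM against 1609 to 3782.5 CPM. The part of endothelial, pericyte or fibroblast RNA in these members' values was not tested.

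The Cxcl12DsRed- library of experiment B was the highest for Ifnlr1, Irf5, Irf8, Ifih1, Isg15 and Usp18, and held nearly all reads of type III interferon ligands. Of 21 ligand genes listed, 17 were in the table, and 14 of them had 0 counts in all 6 libraries, where 3 counts would be 0.0567 to 0.0913 CPM. Ifnl2 had 1, 344 and 0 counts in Cxcl12DsRed- cTEC of A, B and C, against 1, 0 and 0 counts in Cxcl12DsRed+ cTEC. Ifnl3 had 0, 234 and 0 counts in Cxcl12DsRed- cTEC and 0 counts in each Cxcl12DsRed+ library. In the library of experiment B these were 10.5 CPM of Ifnl2 and 7.12 CPM of Ifnl3, and as 1 of 3 libraries held the signal, neither gene passed the filter for testing. The pair shares 31.7% of the 50-base stretches of Ifnl2 and 38.8% of those of Ifnl3. Ifnb1, the interferon beta gene, had 1 count in that library and 2 counts in the Cxcl12DsRed+ library of experiment B, below the floor of 3 counts.

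The same library had the highest levels of Aire, Fezf2 and Csf1r. Aire, the regulator of tissue antigens in the medulla, was at 0, 16.5 and 0.935 CPM in Cxcl12DsRed- cTEC, against 0, 4.98 and 0 CPM in Cxcl12DsRed+ cTEC. Fezf2, another such regulator, was at 9.61, 122 and 8.36 CPM in Cxcl12DsRed- cTEC, against 26.0, 35.3 and 4.33 CPM in Cxcl12DsRed+ cTEC. Csf1r, a receptor of macrophages, was at 0.162, 16.2 and 0.320 CPM in Cxcl12DsRed- cTEC, against 0.416, 5.03 and 0.0258 CPM in Cxcl12DsRed+ cTEC. The sum of the 6 markers listed for medullary epithelium did not stand apart in it, at 8552, 8283 and 5298 CPM in Cxcl12DsRed- cTEC, against 9019, 10622 and 2557 CPM in Cxcl12DsRed+ cTEC. Most of the medullary sum was Ccl21a and Krt14, so it says little about markers such as Aire and Fezf2. In Cxcl12DsRed- cTEC, Ccl21a had a mean of 6322 CPM per kb and Krt14 of 1029 CPM per kb. Fezf2 had a mean of 15.3 CPM per kb there and Aire of 1.5 CPM per kb. The myeloid sum was highest in the Cxcl12DsRed- library of experiment B. It was 550, 846 and 149 CPM in Cxcl12DsRed- cTEC, against 31.9, 62.7 and 88.1 CPM in Cxcl12DsRed+ cTEC. Most of that sum was Lyz2 (462, 803 and 128 CPM in Cxcl12DsRed- cTEC, against 19.1, 31.9 and 80.8 CPM in Cxcl12DsRed+ cTEC), and Siglech, a marker of plasmacytoid dendritic cells, had 0 counts in each Cxcl12DsRed- library, against 74, 51 and 0 counts in Cxcl12DsRed+ cTEC. Which cells held the ligand transcripts was not tested.

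**Figure D5:**
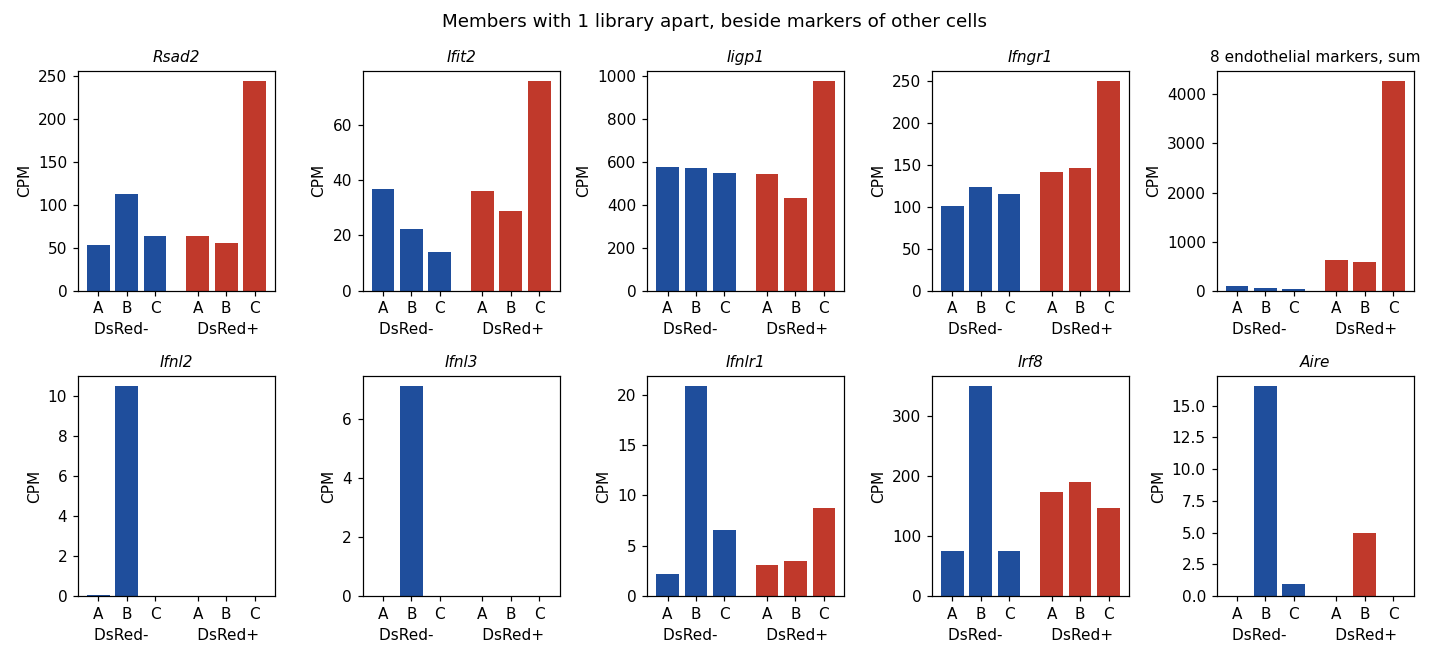
CPM in each library, Cxcl12DsRed- (blue) left of Cxcl12DsRed+ (red) with experiments A, B and C on the x axis, as bars from 0. The upper row shows members that peak in the Cxcl12DsRed+ library of experiment C beside the sum of 8 endothelial markers (4269 CPM there). The lower row shows Ifnl2, Ifnl3, Ifnlr1 and Irf8, which peak in the Cxcl12DsRed- library of experiment B, beside Aire (16.5 CPM there).

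Further genes of the pathway, listed by role and apart from the members, were compared in the same way. Of 92 listed, ligands included, 84 were in the table and 64 were tested, and 0 were called in either direction by edgeR's quasi-likelihood test. At an unadjusted p under 0.05 in that test, 4 were higher in Cxcl12DsRed- cTEC (Oas3, Lgals3bp and Trim30a among them) and 1 was lower (Ifi27), or 6.25% and 1.56% of those tested, against 7.02% and 4.8% of all genes. The log2 difference was positive for 40 and negative for 24, with a median of 0.14, against 7989 positive and 7587 negative over all genes. The subsets did not overlap for 10 above (15.6%, against 9.73% of all genes) and 5 below (7.81%, against 9.32%). Within experiments, 14 were higher in all 3 (21.9%) and 8 lower (12.5%), against 17.5% of all genes in either direction. Their median log2 ratio, with 0.5 CPM added, was 0.16 in A, 0.42 in B and -0.07 in C, so experiment C differed from A and B.

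Oas3, which encodes the largest OAS synthetase, had 83.5, 92.0 and 39.7 CPM in Cxcl12DsRed- cTEC, against 23.97, 18.98 and 3.92 CPM in Cxcl12DsRed+ cTEC. The gap was wide in every experiment, with a log2 difference of 2.20 ± 0.68 (SE, n = 3 per subset; adjusted p = 0.239 in edgeR's quasi-likelihood test, 0.034 in its likelihood ratio test). Lgals3bp, which encodes a secreted glycoprotein, had 1345, 1155 and 764 CPM in Cxcl12DsRed- cTEC, against 713, 624 and 426 CPM in Cxcl12DsRed+ cTEC. Trim30a, a TRIM family gene, had 80.2, 82.5 and 61.5 CPM in Cxcl12DsRed- cTEC, against 43.6, 35.1 and 59.8 CPM in Cxcl12DsRed+ cTEC. Ifi27, an interferon-stimulated gene, had 317, 266 and 390 CPM in Cxcl12DsRed- cTEC, against 416, 535 and 585 CPM in Cxcl12DsRed+ cTEC. It thus lay on the side opposite to most stimulated members, without overlap.

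By role, the kinases, the remaining receptor chain and the other STAT genes had 2 positive and 4 negative differences, and the inhibitors of interferon signalling had 2 positive and 5 negative. Tyk2, a kinase bound to IFNAR1, was at 6.93, 1.004 and 12.8 CPM in Cxcl12DsRed- cTEC, against 30.3, 18.4 and 26.7 CPM in Cxcl12DsRed+ cTEC. The inhibitor Ptpn2, a phosphatase of JAK and STAT proteins, was at 33.6, 44.8 and 25.8 CPM in Cxcl12DsRed- cTEC, against 49.1, 46.2 and 53.7 CPM in Cxcl12DsRed+ cTEC. Genes of nucleic acid sensing had 7 positive and 2 negative differences, and Zbp1, a sensor of Z-form nucleic acids, was at 175, 145 and 110 CPM in Cxcl12DsRed- cTEC, against 102, 96.3 and 42.7 CPM in Cxcl12DsRed+ cTEC. The other stimulated antiviral genes had 21 positive and 9 negative, and the other GTPases had 6 positive and 3 negative. None of these passed the adjusted test.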

How the data were processed

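RNA of 6 libraries, 3 of Cxcl12DsRed- cTEC and 3 of Cxcl12DsRed+ cTEC, was analysed. Per the submitters' processing notes, the authors used Trimmomatic 0.36, STAR 2.7.3a, mm10 and HTSeq, and they deposited raw whole-number counts per gene. Annotation release and strand setting were not stated in the sources used. Among 39277 entries in the table were 92 spike-in names, 5 HTSeq summaries and the reporter, all kept out of library sizes. Reads in no gene came to 5.87% to 9.35% of the counts in genes. A total of 37607 gene IDs were paired with symbols through a GRCm38 annotation, and of the list genes Gbp10, Gbp5, Gbp6, Ifna11, Ifna6, Ifna7, Ifnab and Mb21d1 were not analysed here.

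Counts were tested with edgeR 4.0.16 in R 4.3.3 (TMM, filterByExpr with a minimum count of 10, quasi-likelihood test, prior count 0.125, Benjamini-Hochberg adjustment at 0.05) over 15576 genes. Alternatives were a block for the experiment, the likelihood ratio test with and without it, DESeq2 1.42.0, limma 3.58.1 with voom, RLE or no scaling, a mean minimum of 1 CPM or no filter, and leaving out each library or experiment. The labels give each experiment 1 library per subset, so libraries of an experiment were taken as pairs, and their deviations from the subset means correlated weakly (experiment A 0.0296, B 0.0892, C 0.0810). No library repeated another (chi-square per degree of freedom 166 to 717). An exact permutation test over 6 libraries cannot go below p = 0.1. P-values of fits without the block treat the 6 libraries as independent samples. Those of fits with the block compare the subsets within the 3 experiments. Floors cover counting error only.

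The members and lists were chosen with earlier results of these data known. Full statistics are given for members that passed, had an unadjusted p under 0.05 or did not overlap, and for the receptors, and other members are given by level. A gene of the other lists selected by this rule is not reported here. From the other lists, genes were taken among the 4 with the smallest p. The markers beside single libraries, Ifnl2 and Ifnl3 aside, were picked after their values were seen. Sequences came from the RefSeq promoter table of GRCm38.p6, searched over 250 bases. Plots were drawn with matplotlib 3.10.9.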

Additional observations from a re-analysis of the deposited data

How the results depend on the processing

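No member was called in the paired quasi-likelihood fit, with other scaling or filters, or without the Cxcl12DsRed- library of C or experiment C, fits that called 35 to 168 genes in all. The other fits with a library or experiment left out called 0 or 1 gene and limma voom 4, so they do not bear on the members' calls. The likelihood ratio test, the same test with the block and DESeq2 each called 1 member higher in Cxcl12DsRed- cTEC, Oasl1 in the first and last and Irf7 in the second. Over all genes, the calls numbered 97 in the main test, 880 in the likelihood ratio test, 1060 in that test with the block, 1081 in DESeq2, 4 in limma voom, 168 without a filter and 73 in the paired quasi-likelihood test with the block, and 0 to 139 when a library or an experiment was left out. The paired quasi-likelihood fit changed no call of a member.

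Irf7, Ifih1, Ifit1, Oasl1, Mx1, Rtp4, Ifngr1 and Ifngr2 kept their direction in every alternative. Of all 39 members, 20 turned in at least 1, the receptors Ifnar1, Ifnar2 and Ifnlr1 among them. Ifnar1 was at 0.0010 on the log2 scale with the block in either test and ranged from -0.40 to 0.22 when libraries or experiments were left out. Ifnar2 ranged from -0.26 to 0.20 and Ifnlr1 from -0.39 to 1.78 in the same settings. The number of members higher at an unadjusted p under 0.05 was 4 in the main test (7.02% of all genes), 1 without Cxcl12DsRed- A (5.28%), Cxcl12DsRed- B (6.21%) or Cxcl12DsRed+ B (5.14%), 0 without experiment B (4.74%) and 6 without the Cxcl12DsRed+ library of A (6.07%). The cause was not tested.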
